A study of Mus musculus with 16 samples.

Results

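The JNK inhibitor was added to dispersed mouse islet cells that carried one of 2 adenoviruses, and the interaction described here is the part of the inhibitor's effect that depended on the virus. For each gene and each of the 4 replicate codes F1, M1, M2 and F2, it was taken as (Ad-Cre + JNK Inh minus Ad-Cre + DMSO) minus (Ad-LacZ + JNK Inh minus Ad-LacZ + DMSO) on the log2(RPKM + 1) scale. RPKM is a read number scaled by transcript length and by library size. A positive interaction means that the inhibitor raised a gene more, or lowered it less, with Ad-Cre than with Ad-LacZ. All 16 libraries of the series entered it, 4 in each of 4 groups, and 12274 of the 25105 genes in the file had more than 1 RPKM in at least 4 of the 16 libraries and were tested.

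The cells came from Grp78 flox/flox mice, whose Hspa5 gene, also called Grp78, can be cut by Cre recombinase. Dispersed islet cells received adenovirus for LacZ (Ad-LacZ, the control) or for Cre (Ad-Cre, the knockdown), with the vehicle DMSO or with JNK-IN-8, a pan-JNK inhibitor present from the start, and all 4 groups were kept for 72 h in 15 mM glucose. Each replicate code is 1 islet preparation that was split over the 4 groups, so the groups share their islets. Each preparation carries 2 animal numbers in its label, while the methods count 4 mice in all. Adenovirus can enter any islet cell, so Cre was not restricted to β cells, and the control carried both the floxed alleles and a virus.

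Hspa5 encodes GRP78 (also called BiP), the main HSP70-type chaperone of the endoplasmic reticulum (ER), which also holds the stress sensors PERK, IRE1 and ATF6 in check. IRE1 can pass the stress signal to JNK, a kinase that phosphorylates the transcription factor c-Jun and can lead to cell death. Islets hold β, α, δ and PP endocrine cells beside endothelial cells, macrophages and stellate or fibroblast-like cells, and any of these can take up an inhibitor.

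Several libraries stood apart or went against their labels. Hspa5 was higher in every library labelled Ad-Cre than in every library labelled Ad-LacZ, against the direction of a knockdown, and a value for the whole gene cannot tell the floxed exons apart from the rest. Calr, Herpud1 and Hsp90b1, which encode other proteins of the ER, were also higher in every Ad-Cre library than in every Ad-LacZ library. Knockdown was checked in the study by qPCR of aliquots kept in parallel, which was not analysed here, and groups are named by their labels. Xist, the RNA of the inactive X chromosome, was at 27.1 to 46.4 RPKM in the 4 libraries coded M2 and at 0.0197 to 0.0283 RPKM in those coded F2, and Ddx3y, which lies on the Y chromosome, was at 0.00833 to 0.0379 RPKM in M2 and at 12.4 to 25.3 RPKM in F2, so both codes went against their sex letters. The summed RPKM of 258 immunoglobulin genes was 2.04 to 3.50 in the 8 libraries of F1 and M1. In M2 and F2 it was 42.0 and 4.77 with Ad-LacZ + DMSO, 4924 and 6285 with Ad-LacZ + JNK Inh, 652 and 619 with Ad-Cre + DMSO, and 110 and 9.89 with Ad-Cre + JNK Inh. RNA of these genes, which B cells and plasma cells make, thus had its highest sums in 4 libraries of M2 and F2. The Ad-Cre + JNK Inh library of F2 was the only one from another run and lane. Its depth was estimated from the RPKM values at 7.69 M (mega) reads, against 14.3 to 25.5 M in the other 15. The paper states a range of raw counts per sample that lies above this 7.69 M. The double differences of all genes had an SD of 0.46 (F1), 0.32 (M1), 0.67 (M2) and 0.60 (F2). Across the 12274 genes tested, those of M2 and F2 correlated with r = 0.80 and those of F1 and M1 with r = 0.42, while r was between -0.32 and 0.29 for the other pairs of codes, a description across genes that share their libraries. A fit without M2 and F2, a setting chosen after the data were seen, is given beside many results. Of 129 genes examined singly, 106 had a called interaction (defined below) and 89 of these could be fitted without M2 and F2, where 45 were called again, 44 were not, and 89 had the same sign. F1 and M1 are part of the data that gave the calls. Some of these genes were also chosen for 1 sign in all codes, so the shared sign is not independent evidence. Levels are given as RPKM as deposited, and their order within a code is that of these values unless the scaled values of the fit are named.

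Hspa5 (ENSMUSG00000026864, chr2:34771970-34777547 on GRCm38) was measured at 478, 483, 395 and 396 RPKM with Ad-LacZ + DMSO, 458, 461, 348 and 372 with Ad-LacZ + JNK Inh, 1107, 1114, 1237 and 1598 with Ad-Cre + DMSO and 1381, 1416, 1202 and 1660.5 with Ad-Cre + JNK Inh, in the order F1, M1, M2 and F2, which holds for all values below. With Ad-Cre the inhibitor libraries were higher in 3 of the 4 codes (M2 was lower), and with Ad-LacZ they were lower in 4 of 4, but on the scaled values used in the fit they were higher in 4 of 4 codes with Ad-Cre and lower in 3 of 4 with Ad-LacZ (F1 was higher). The interaction of Hspa5 was 0.41 (standard error (SE) 0.20, adjusted p = 0.45, limma with Benjamini-Hochberg adjustment over all genes tested), with double differences of 0.34, 0.54, 0.38 and 0.40. It thus had 1 sign in all 4 codes without passing either threshold. Over the 14 alternative settings the interaction of Hspa5 ran from 0.032 to 0.45, and it was called in 3 of them. Jun, which encodes c-Jun, was at 16.7, 15.7, 28.6 and 22.2 RPKM with Ad-LacZ + DMSO, 6.02, 6.12, 14.1 and 12.5 with Ad-LacZ + JNK Inh, 17.3, 16.6, 31.2 and 22.5 with Ad-Cre + DMSO and 8.16, 7.18, 13.1 and 9.87 with Ad-Cre + JNK Inh. Within each code and virus, Jun was lower with the inhibitor. Its level fell by 0.95 with Ad-Cre (adjusted p = 0.00067, limma) and by 1.06 with Ad-LacZ (adjusted p = 0.00017, limma), and the interaction was 0.11 (SE 0.13, adjusted p = 0.86, limma), less than the SE.

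Promoter windows from RefSeq (GRCm38.p6, 250 bases before to 50 bases after the start site) are shown for 3 genes that the results turn on, the targeted gene and a gene from each of the groups with the clearest interaction, so that their possible AP-1 sites, where c-Jun can bind, can be seen. The motifs searched on both strands were TGANTCA (AP-1), TGACGTCA (the cAMP response element) and CCACG (a box of ER stress elements), and capitals mark the matches. Of 27025 promoters in the table, 8.97% held TGANTCA, 2.03% the cAMP response element and 35.5% CCACG. The Hspa5 window (chr2:34771840-34772139, plus strand) held TGANTCA and CCACG, the Sst window (chr16:23890795-23891094, minus strand) held the cAMP response element and CCACG in 2 places, and the Col1a2 window (chr6:4505368-4505667, plus strand) held CCACG in 2 places. Of the 12274 genes tested, 9462 had a window, and 6.1% of these held TGANTCA, against 10.8% of the 518 with a window among the 736 genes called lower below and 6.08% of the 477 among the 638 called higher. Of the 22 stellate, fibroblast and matrix genes with a window, 4.55% held TGANTCA, and the Col3a1 window, not shown, held none of the motifs. The cAMP response element was in 3.75% of genes tested, 1.54% of those called lower and 4.19% of those called higher. For CCACG these shares were 52.7%, 47.9% and 58.9%. So many genes lacked a window that a check of these shares is void, and they are given as a description only.
Hspa5: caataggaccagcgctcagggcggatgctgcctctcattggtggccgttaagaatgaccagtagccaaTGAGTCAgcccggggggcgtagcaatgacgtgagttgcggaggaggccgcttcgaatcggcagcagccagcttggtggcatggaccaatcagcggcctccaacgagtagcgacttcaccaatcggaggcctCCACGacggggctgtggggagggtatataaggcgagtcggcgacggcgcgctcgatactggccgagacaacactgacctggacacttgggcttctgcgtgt
Sst: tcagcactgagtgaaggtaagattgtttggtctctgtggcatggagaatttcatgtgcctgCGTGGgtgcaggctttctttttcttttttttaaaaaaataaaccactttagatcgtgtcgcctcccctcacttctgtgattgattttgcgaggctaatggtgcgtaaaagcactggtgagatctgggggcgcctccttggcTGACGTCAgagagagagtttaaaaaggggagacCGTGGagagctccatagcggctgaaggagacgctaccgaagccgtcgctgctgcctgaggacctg
Col1a2: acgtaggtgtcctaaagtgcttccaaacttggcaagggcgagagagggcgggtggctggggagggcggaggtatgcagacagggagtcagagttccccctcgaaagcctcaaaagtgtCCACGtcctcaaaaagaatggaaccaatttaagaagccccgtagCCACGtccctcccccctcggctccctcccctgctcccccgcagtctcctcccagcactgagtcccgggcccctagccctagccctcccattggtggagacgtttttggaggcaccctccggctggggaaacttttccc

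No gene passed an adjusted p under 0.05 for the interaction in limma (0 of 12274, 0%); the smallest adjusted p was 0.070, and 1442 genes had an unadjusted p under 0.05. A fit on the 4 double differences alone also gave 0 genes at the adjusted p, quantile normalization gave 1 and the fit without the replicate code as a block gave 2. Genes are called below where the unadjusted p was under 0.05 and the fold above 1.2, the criteria that the study used for the inhibitor with P taken as unadjusted. In these terms 638 genes (5.20%) had a higher interaction and 736 (6.00%) a lower one. The RPKM values as deposited, without further scaling, gave 210 higher and 1398 lower, with the median of all genes at -0.12 in place of -0.00. By the same criteria, with Ad-Cre the inhibitor raised 1232 genes (10.0%) and lowered 791 (6.44%), and with Ad-LacZ it raised 696 (5.67%) and lowered 298 (2.43%); as deposited, 526 were raised and 2227 lowered with Ad-Cre. These shares of all genes tested are the background for the list counts below. The double difference had 1 sign in all 4 codes in 2660 genes (21.7%), and an exact sign-flip permutation test of 4 values cannot give a p below 0.125.

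By the signs of the 2 estimates alone, most called genes had inhibitor effects of opposite direction with each virus. Over all 12274 genes tested, 2255 were higher with the inhibitor after Ad-Cre and lower after Ad-LacZ, and 2604 the reverse. A call needs a large difference between the 2 effects, which favours opposite signs, so the counts are a description. Of the 638 with a higher interaction, 387 were higher with the inhibitor after Ad-Cre and lower after Ad-LacZ, 242 were higher with both and 9 lower with both. Of the 736 with a lower interaction, 618 were lower with the inhibitor after Ad-Cre and higher after Ad-LacZ, 72 were higher with both and 46 lower with both. The inhibitor's effect was called with Ad-Cre and not with Ad-LacZ in 456 of the 638 genes, and with Ad-LacZ and not with Ad-Cre in 28. For the 736 these counts were 223 and 293. It was called with both viruses in only 25 of the 638 and 50 of the 736, and with neither virus in 129 and 170. One sign in all 4 codes was seen in 531 of the 638 and 485 of the 736. In a fit on F1 and M1 alone, 1122 of the 1374 called genes could be tested, 1098 of them had the same direction, and 334 were called again among 1052 calls. Since F1 and M1 also entered the first fit, the shared direction is not independent evidence.

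**Figure D1:**
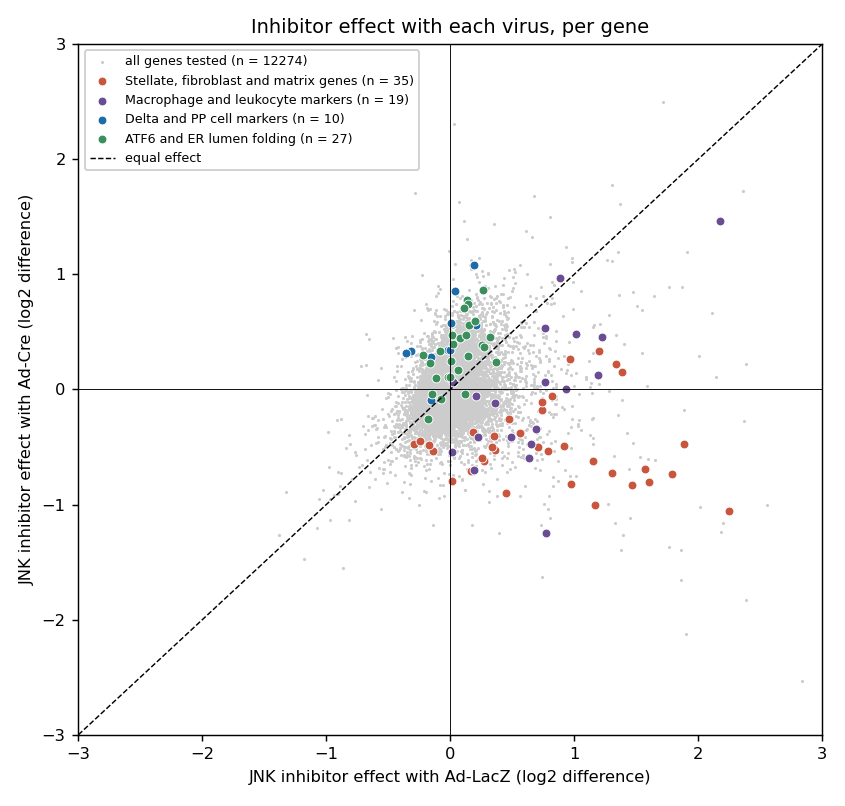
Each point is 1 of the 12274 genes tested, with the inhibitor's effect (log2 difference) with Ad-LacZ on the horizontal axis and with Ad-Cre on the vertical axis; colours mark 4 gene lists, the dashed line marks an equal effect, and 6 genes lie outside the axes. All 35 matrix genes lie below the line, 27 of them in the quadrant where the inhibitor's effect was positive with Ad-LacZ and negative with Ad-Cre, and all 10 δ and PP markers lie above it.

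By a rule, the 10 genes with the smallest p in each direction and 1 sign in all 4 codes were described singly. Mucl2 (ENSMUSG00000036925, a mucin-like gene at chr15:103895855-103899312) was measured at 0, 0, 0 and 0.146 RPKM with Ad-LacZ + DMSO, 0, 0, 0.274 and 0 with Ad-LacZ + JNK Inh, 0.111, 0.465, 0.423 and 0.337 with Ad-Cre + DMSO and 7.37, 6.47, 5.07 and 2.46 with Ad-Cre + JNK Inh. Only the Ad-Cre + JNK Inh libraries were above 1 RPKM, so that Mucl2 passed the filter on low values through the group where it was high, and its interaction of 2.27 (SE 0.32) is given as a description. Ambp, which encodes the precursor of α1-microglobulin and bikunin, was at 19.2, 21.5, 29.4 and 28.9 RPKM with Ad-LacZ + DMSO, 13.3, 15.6, 14.9 and 14.7 with Ad-LacZ + JNK Inh, 79.1, 68.9, 66.1 and 94.4 with Ad-Cre + DMSO and 99.0, 84.0, 91.5 and 110.0 with Ad-Cre + JNK Inh. The inhibitor libraries were higher in every code with Ad-Cre and lower in every code with Ad-LacZ, and the interaction of Ambp was 1.16 (SE 0.19, adjusted p = 0.070, limma). Zfp784, a zinc finger gene, showed the same opposition at a lower level, with 3.70, 3.81, 4.62 and 3.93 RPKM with Ad-LacZ + DMSO, 2.52, 2.99, 3.48 and 3.05 with Ad-LacZ + JNK Inh, 5.14, 4.50, 4.99 and 5.74 with Ad-Cre + DMSO and 6.84, 6.42, 5.95 and 7.28 with Ad-Cre + JNK Inh. Its 4 double differences, 0.76, 0.81, 0.73 and 0.78, had an SD of 0.034, and its interaction was 0.77 (SE 0.11, adjusted p = 0.070, limma).
Rpp25, a subunit of the RNA-processing enzymes RNase P and RNase MRP, was at 3.84, 3.62, 2.11 and 2.46 RPKM with Ad-LacZ + DMSO, 3.08, 3.56, 2.43 and 2.81 with Ad-LacZ + JNK Inh, 5.66, 3.77, 3.07 and 3.20 with Ad-Cre + DMSO and 9.92, 7.41, 5.30 and 8.10 with Ad-Cre + JNK Inh. With Ad-Cre it was higher in each inhibitor library than in the DMSO library of its code, and with Ad-LacZ the codes were split, for an interaction of 0.94 (SE 0.14, adjusted p = 0.070, limma). Ffar4, the long-chain fatty acid receptor GPR120, was at 4.59, 3.06, 5.12 and 2.41 RPKM with Ad-LacZ + DMSO, 3.73, 3.01, 3.98 and 2.82 with Ad-LacZ + JNK Inh, 5.23, 3.76, 5.86 and 3.94 with Ad-Cre + DMSO and 8.17, 5.01, 8.77 and 6.32 with Ad-Cre + JNK Inh. Its levels in the Ad-Cre + JNK Inh libraries overlapped those of the other groups across codes but were the highest of the 4 groups within every code (interaction 0.71, SE 0.12, adjusted p = 0.070, limma). The interactions of the other 5 were 0.93 for Rnf227, 0.85 for Ell3 (a transcription elongation factor), 0.81 for Ccdc115 (a factor of proton pump assembly), 0.75 for Ppa1 (the cytosolic pyrophosphatase) and 0.56 for Rnf7 (a RING subunit of cullin ubiquitin ligases), each with an adjusted p of 0.070 from limma. The call of each of these genes was kept in every alternative fit in which the gene could be tested, which for Mucl2 was 8 fits against 14 for the others. The genes were chosen by p and sign in these same libraries, so the kept calls are not independent evidence. In the fit on F1 and M1 alone, interactions were 0.75 for Zfp784, 0.91 for Rpp25, 0.78 for Ambp and 0.59 for Ffar4, and Mucl2 was too low to be tested.

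Among the 10 genes in the other direction, Col1a1 and Actg2 are described below with the matrix genes. Nrcam, a neuronal cell adhesion molecule, was at 4.11, 4.62, 4.47 and 3.64 RPKM with Ad-LacZ + DMSO, 13.2, 13.7, 15.5 and 13.8 with Ad-LacZ + JNK Inh, 2.16, 2.52, 4.21 and 2.51 with Ad-Cre + DMSO and 3.95, 4.06, 5.29 and 4.99 with Ad-Cre + JNK Inh. The 4 Ad-LacZ + JNK Inh libraries were above the other 12, and the inhibitor raised Nrcam by 1.55 with Ad-LacZ and by 0.69 with Ad-Cre, for an interaction of -0.86 (SE 0.15, adjusted p = 0.070, limma). Lix1 was at 4.13, 1.78, 4.61 and 5.08 RPKM with Ad-LacZ + DMSO, 9.17, 5.89, 9.99 and 13.5 with Ad-LacZ + JNK Inh, 0.796, 0.537, 0.766 and 1.02 with Ad-Cre + DMSO and 0.878, 0.505, 0.760 and 0.490 with Ad-Cre + JNK Inh. Here, too, each Ad-LacZ + JNK Inh library was above the other 12, while both Ad-Cre groups were at 1.02 RPKM or less (interaction -1.18, SE 0.22, adjusted p = 0.098, limma). Ddx58, which encodes the viral RNA sensor RIG-I, was at 3.97, 4.21, 4.96 and 3.92 RPKM with Ad-LacZ + DMSO, 4.32, 4.30, 5.63 and 4.72 with Ad-LacZ + JNK Inh, 4.03, 4.08, 4.86 and 4.20 with Ad-Cre + DMSO and 2.56, 2.57, 3.32 and 2.50 with Ad-Cre + JNK Inh. The Ad-Cre + JNK Inh libraries were below the other 12, and the interaction was -0.52 (SE 0.091, adjusted p = 0.070, limma). Interactions of the other 5 were -0.59 for the serine protease Prss23, -0.59 for Vwa5a, -0.53 for Pigr (the polymeric immunoglobulin receptor), -0.52 for Tenm3 (a teneurin adhesion protein) and -0.83 for Tpbg, with adjusted p from 0.13 to 0.15 in limma. Without M2 and F2, Nrcam (-0.85), Lix1 (-1.16), Ddx58 (-0.57), Prss23 (-0.57), Vwa5a (-0.51), Pigr (-0.44) and Tenm3 (-0.59) were still called by the unadjusted p and the fold, and Tpbg was too low to be tested. These genes, too, were chosen in the same libraries, so this is not independent evidence.

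**Figure D2:**
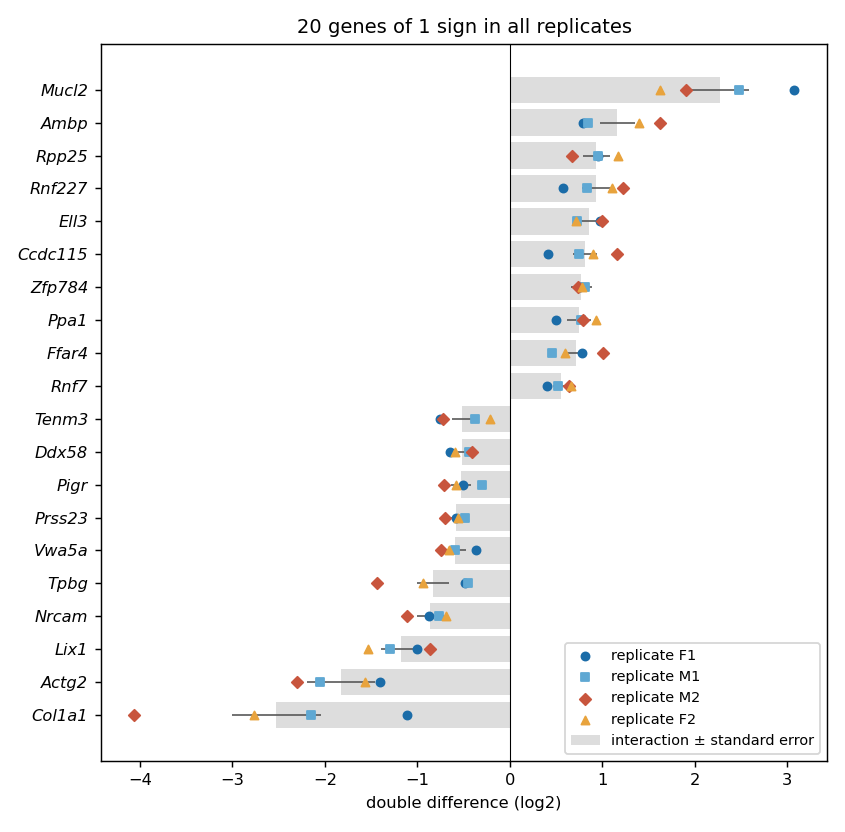
Points give the double difference (log2) of each replicate code for the 20 genes taken by the rule, 10 in each direction. The rule took only genes with all 4 points on 1 side of 0, so this is not a result. The points run from 1.62 to 3.08 for Mucl2 and from -4.07 to -1.12 for Col1a1.

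Of the stellate, fibroblast and matrix genes, 37 were in the file and 35 were tested. All 35 interactions were negative, 30 were called lower (background 6.00%) and 0 higher, and 24 had 1 sign in all 4 codes. The median interaction was -0.92, against -0.00 over all genes tested. On these genes the inhibitor's median effect was 0.74 with Ad-LacZ, where 23 were called higher and 0 lower, and -0.50 with Ad-Cre, where 14 were called lower and 0 higher; 27 of the 35 were higher with one virus and lower with the other. In all fits that left out 1 replicate code, 21 to 29 were called lower. On F1 and M1 alone the median was -0.66 and 17 were called lower.
Col1a1 (ENSMUSG00000001506, chr11:94936224-94953042), the α1 chain of type I collagen, was at 13.1, 18.4, 60.3 and 31.6 RPKM with Ad-LacZ + DMSO, 27.8, 58.1, 280.0 and 153 with Ad-LacZ + JNK Inh, 11.9, 17.8, 339 and 94.7 with Ad-Cre + DMSO and 11.5, 10.9, 78.0 and 54.9 with Ad-Cre + JNK Inh. Within every code the inhibitor libraries were higher with Ad-LacZ and lower with Ad-Cre, except that on the scaled values F1 was higher with Ad-Cre too, by 0.068, and the levels of M2 and F2 were above those of F1 and M1 in every group, so that the groups overlapped across codes. The interaction was -2.53 (SE 0.48, adjusted p = 0.11, limma), with double differences of -1.12, -2.15, -4.07 and -2.77, and -1.67 without M2 and F2. Col1a2, the other chain of type I collagen, was at 2.88, 4.06, 13.5 and 6.64 RPKM with Ad-LacZ + DMSO, 5.50, 17.1, 69.5 and 46.3 with Ad-LacZ + JNK Inh, 3.06, 4.23, 86.7 and 27.4 with Ad-Cre + DMSO and 3.61, 4.00, 17.4 and 20.9 with Ad-Cre + JNK Inh, for an interaction of -2.36 (SE 0.54, adjusted p = 0.15, limma) that was -1.22 without M2 and F2. Its double difference was negative in every code, although with Ad-Cre the inhibitor library of F1, and on the scaled values also that of M1, was the higher of its pair. Col3a1, the chain of type III collagen, was at 1.34, 1.93, 14.0 and 6.02 RPKM with Ad-LacZ + DMSO, 2.91, 11.7, 101 and 69.3 with Ad-LacZ + JNK Inh, 0.878, 2.34, 169 and 32.0 with Ad-Cre + DMSO and 1.34, 1.42, 15.7 and 12.5 with Ad-Cre + JNK Inh. Its Ad-Cre + DMSO library of M2 was the highest of the 16, and the interaction of -3.30 (SE 0.72, adjusted p = 0.15, limma) was -1.50 without M2 and F2, a move of over 1.5 times.
Fn1 (fibronectin) was at 7.31, 13.3, 92.7 and 57.3 RPKM with Ad-LacZ + DMSO, 14.1, 44.5, 231 and 144 with Ad-LacZ + JNK Inh, 4.89, 12.4, 331 and 104 with Ad-Cre + DMSO and 4.23, 5.95, 106 and 60.7 with Ad-Cre + JNK Inh. Each code had a lower value with the inhibitor after Ad-Cre and a higher one after Ad-LacZ, and the interaction was -2.04 (SE 0.46, adjusted p = 0.15, limma), or -1.83 without M2 and F2. Postn (periostin, a matrix protein of activated fibroblasts) was at 2.24, 2.02, 7.62 and 5.77 RPKM with Ad-LacZ + DMSO, 3.26, 6.18, 29.1 and 14.5 with Ad-LacZ + JNK Inh, 2.38, 2.59, 62.4 and 15.3 with Ad-Cre + DMSO and 1.55, 1.52, 11.7 and 5.62 with Ad-Cre + JNK Inh, with an interaction of -2.17 (SE 0.47, adjusted p = 0.15, limma), or -1.28 without M2 and F2. Actg2, the smooth muscle γ-actin, which stood in none of the lists, was at 6.06, 27.4, 66.5 and 42.5 RPKM with Ad-LacZ + DMSO, 8.55, 54.9, 119.9 and 76.9 with Ad-LacZ + JNK Inh, 6.53, 32.9, 248 and 90.1 with Ad-Cre + DMSO and 2.99, 13.9, 76.0 and 45.4 with Ad-Cre + JNK Inh. It was lower with the inhibitor in every code after Ad-Cre and higher after Ad-LacZ, with double differences of -1.41, -2.05, -2.30 and -1.57, for an interaction of -1.83 (SE 0.37, adjusted p = 0.14, limma), or -1.75 without M2 and F2. Interactions of other members were -1.35 for Cnn1 (calponin), -2.26 for Dcn (decorin), -2.41 for Thbs2 (thrombospondin 2), -1.21 for Sparc, -0.90 for Acta2 (smooth muscle α-actin), and -0.73 and -0.70 for the platelet-derived growth factor receptors Pdgfra and Pdgfrb. Thy1 (-0.81), Vim (-0.40), Ccn1 (-0.32) and Ccn2 (-0.18) were among the 5 members that were not called.
The sums of the matrix genes were higher in M2 and F2 than in F1 and M1 in every group, although with Ad-LacZ + DMSO F2 was little above M1. Their summed RPKM was 1063, 1481, 2881 and 1697 with Ad-LacZ + DMSO, 833, 1683, 4705 and 2887 with Ad-LacZ + JNK Inh, 1082, 1484, 7140 and 3161 with Ad-Cre + DMSO, and 821, 953, 3722 and 2050 with Ad-Cre + JNK Inh. In F1 the sum was lower with the inhibitor under both viruses, while the list's median effect in F1 was 0.25 (Ad-LacZ) and -0.076 (Ad-Cre). For M1 the median effects were 0.56 and -0.38, for M2 1.06 and -0.82, and for F2 1.16 and -0.47. The median double difference was -0.21 (F1), -0.88 (M1), -1.76 (M2) and -1.38 (F2). In bulk RNA, fewer cells of a type and less RNA per cell cannot be told apart.

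**Figure D3:**
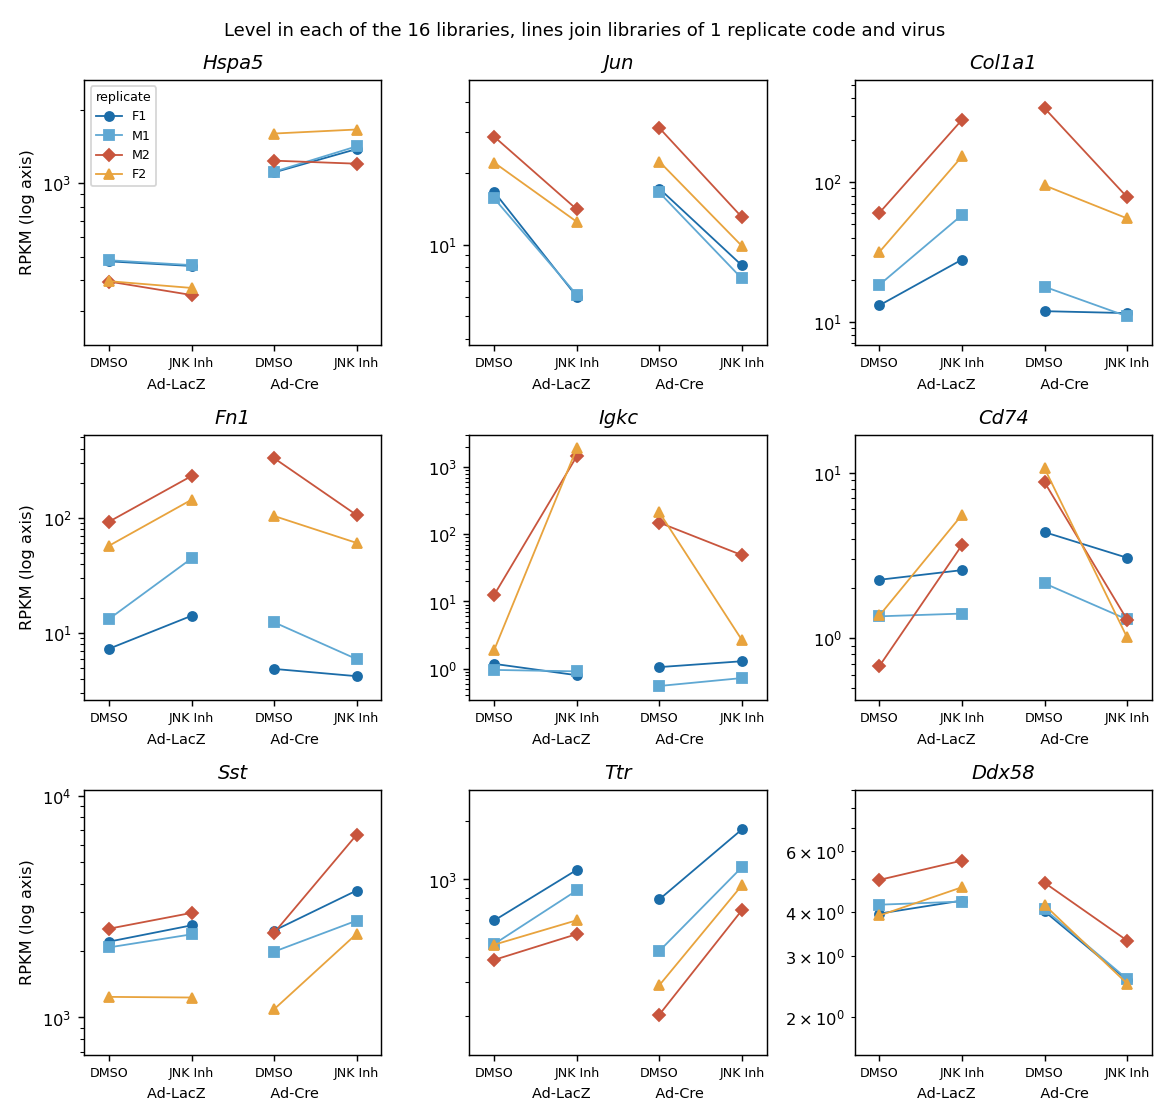
Panels give the RPKM (log axis) of single genes in the 16 libraries, and lines join the DMSO and JNK Inh libraries of 1 replicate code and virus. For Col1a1 all 4 lines climb with Ad-LacZ (from 13.1 to 27.8 RPKM in F1) and all 4 descend with Ad-Cre (from 339 to 78.0 RPKM in M2).

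Adhesion and cytoskeleton genes had the same direction with smaller values. Of 35 tested, 14 were called lower (background 6.00%) and 1 higher, the median interaction was -0.36, and 29 interactions were negative. Myl9, the regulatory light chain of smooth muscle myosin, was at 17.1, 29.3, 82.3 and 69.0 RPKM with Ad-LacZ + DMSO, 24.2, 42.4, 134 and 81.2 with Ad-LacZ + JNK Inh, 18.5, 32.0, 215 and 92.2 with Ad-Cre + DMSO and 13.2, 21.7, 133 and 54.2 with Ad-Cre + JNK Inh. Its double differences were close to each other, -0.97, -0.94, -1.15 and -0.74, and the interaction was -0.95 (SE 0.29, adjusted p = 0.24, limma), or -0.99 without M2 and F2. Itga5, the integrin subunit that binds fibronectin, had an interaction of -1.13 (SE 0.33), Vcl (vinculin) -0.66 (SE 0.21), Flna (filamin A) -0.74 and Tpm2 (a tropomyosin) -0.85. The member called higher was Gap43, a growth cone protein, with 0.47. On F1 and M1 alone, 9 of the list were called lower and the median was -0.31, while leaving out F2 gave 5 calls and leaving out M1 gave 9.

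Macrophage and leukocyte markers also had mostly negative interactions, but these rested on M2 and F2. Of 27 markers, 19 were tested, 9 were called lower (background 6.00%) and 0 higher, and the median interaction was -0.71. The median double difference was 0.20 (F1), -0.19 (M1), -1.21 (M2) and -1.72 (F2). On F1 and M1 alone the median was 0.04 and 1 marker was called lower. Leaving out M2 gave 2 calls and leaving out F2 gave 1, whereas leaving out F1 gave 14 and leaving out M1 gave 7. With Ad-LacZ the inhibitor's effect on the list had a median of 0.69, with 12 markers called higher and 0 lower, and in F1 and M1 it was 0.25 and 0.29. Ptprc, the marker of all leukocytes, and Aif1, S100a8, Cd3e and Ms4a1 did not pass the filter on low values.
Cd74, the invariant chain of MHC class II, was at 2.25, 1.35, 0.678 and 1.37 RPKM with Ad-LacZ + DMSO, 2.58, 1.41, 3.65 and 5.57 with Ad-LacZ + JNK Inh, 4.37, 2.14, 8.76 and 10.6 with Ad-Cre + DMSO and 3.06, 1.30, 1.29 and 1.01 with Ad-Cre + JNK Inh. The Ad-Cre + DMSO libraries of M2 and F2 were the 2 highest of the 16, and the interaction of -2.02 (SE 0.47, adjusted p = 0.16, limma) was -0.51 without these 2 codes. Laptm5, a lysosomal protein of leukocytes, was at 2.99, 3.11, 2.43 and 2.73 RPKM with Ad-LacZ + DMSO, 3.11, 3.83, 7.44 and 6.58 with Ad-LacZ + JNK Inh, 2.96, 3.91, 12.5 and 9.43 with Ad-Cre + DMSO and 3.31, 3.18, 4.85 and 3.79 with Ad-Cre + JNK Inh, with an interaction of -1.13 (SE 0.34, adjusted p = 0.24, limma) and of -0.19 without M2 and F2. In F1 and M1 its values stayed between 2.96 and 3.91 RPKM in all 8 libraries. C1qa, a complement subunit of tissue macrophages, was at 31.4, 34.1, 31.2 and 27.8 RPKM with Ad-LacZ + DMSO, 44.4, 72.7, 42.8 and 56.1 with Ad-LacZ + JNK Inh, 31.4, 32.2, 42.0 and 39.5 with Ad-Cre + DMSO and 66.3, 61.4, 29.9 and 39.6 with Ad-Cre + JNK Inh, and its interaction of -0.23 (SE 0.28, adjusted p = 0.86, limma) was within 1 SE of 0. The summed RPKM of the markers was 135, 144, 128 and 155 with Ad-LacZ + DMSO, 243, 294, 441 and 467 with Ad-LacZ + JNK Inh, 148, 171, 362 and 322 with Ad-Cre + DMSO, and 331, 275, 473 and 370 with Ad-Cre + JNK Inh. The inhibitor libraries had the higher sum in every code with both viruses, by a larger factor with Ad-LacZ in M1, M2 and F2 and with Ad-Cre in F1. The part that these cells and the immunoglobulin RNA have in the other groups was not tested.
Of genes outside the list, Igkc (the κ constant region), Ighm (the μ heavy chain), Jchain (the chain that joins antibody units), Mmp9 (gelatinase B) and Ctsk (cathepsin K) had strongly negative interactions, and were chosen after their values were seen. Igkc was at 1.18, 0.957, 12.6 and 1.90 RPKM with Ad-LacZ + DMSO, 0.798, 0.911, 1449.8 and 1904 with Ad-LacZ + JNK Inh, 1.05, 0.552, 149 and 212 with Ad-Cre + DMSO and 1.29, 0.724, 49.0 and 2.68 with Ad-Cre + JNK Inh, for an interaction of -5.59 (SE 1.96, adjusted p = 0.29, limma) with double differences of 0.43, 0.24, -8.08 and -14.96. F1 and M1 thus had small positive values and the other codes large negative ones. Mmp9 was at 0.0379, 0.0540, 0.0614 and 0.0390 RPKM with Ad-LacZ + DMSO, 0.0667, 0.187, 10.6 and 18.1 with Ad-LacZ + JNK Inh, 0.0396, 0.130, 15.8 and 27.6 with Ad-Cre + DMSO and 0.136, 0.0544, 0.0696 and 0 with Ad-Cre + JNK Inh. Its interaction of -4.03 (SE 1.15) likewise came from M2 and F2, since all 8 libraries of F1 and M1 were at 0.187 RPKM or less. Only the Ad-LacZ + JNK Inh and Ad-Cre + DMSO libraries of M2 and F2 were above 1 RPKM. Mmp9 thus passed the filter on low values through libraries that enter the interaction with a minus sign, and its value is given as a description.

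**Figure D4:**
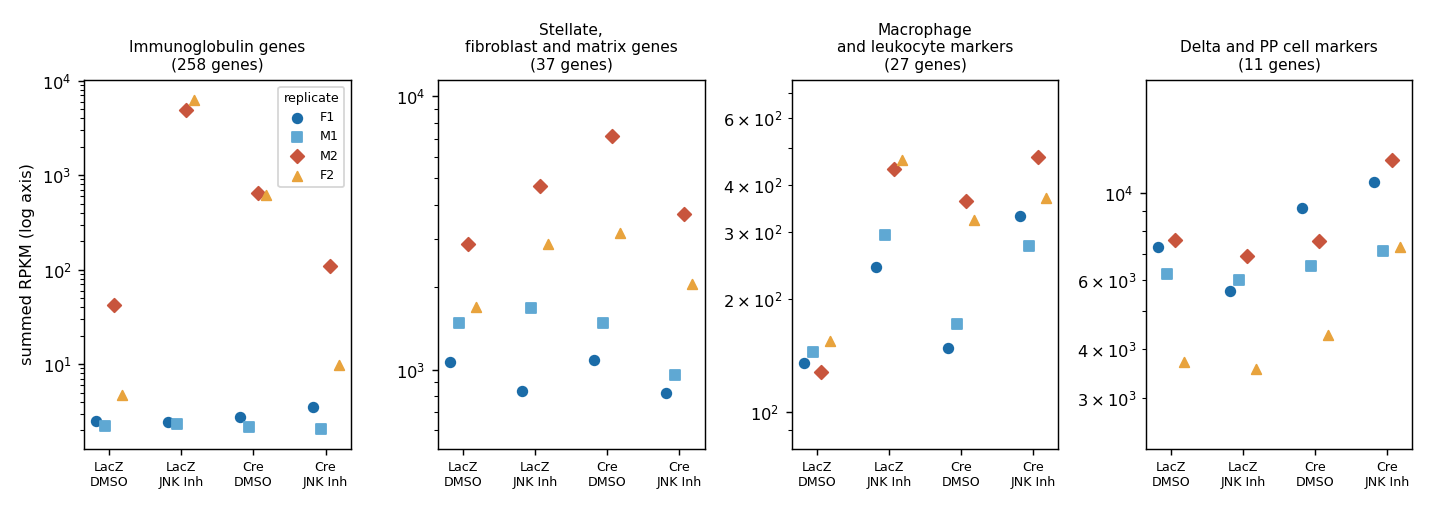
Panels give the summed RPKM (log axis) of 4 gene lists in the 16 libraries, with 1 point per library and a symbol for each replicate code. The matrix genes of M2 peak at 7140 RPKM with Ad-Cre + DMSO, and the macrophage markers have 128 to 155 RPKM in the 4 Ad-LacZ + DMSO libraries against 243 to 467 with Ad-LacZ + JNK Inh.

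Interferon response and MHC class I genes had 12 of 27 called lower (background 6.00%) and 0 higher, with a median interaction of -0.36. Their median was -0.05 (F1), -0.18 (M1), -0.46 (M2) and -0.59 (F2), and on F1 and M1 alone 3 were called lower with a median of -0.09. Gbp2, an interferon-induced GTPase, was at 0.445, 0.329, 1.26 and 0.823 RPKM with Ad-LacZ + DMSO, 0.488, 1.66, 1.79 and 1.56 with Ad-LacZ + JNK Inh, 0.279, 0.400, 3.42 and 1.69 with Ad-Cre + DMSO and 0.0545, 0.249, 0.490 and 0.257 with Ad-Cre + JNK Inh. In each code it was lower with the inhibitor after Ad-Cre and higher after Ad-LacZ (interaction -1.17, SE 0.29, adjusted p = 0.18, limma), at levels of 3.42 RPKM or less. Apart from the Ad-LacZ + DMSO library of M2, its libraries above 1 RPKM were Ad-LacZ + JNK Inh or Ad-Cre + DMSO libraries. Gbp2 thus passed the filter on low values mainly through libraries that enter the interaction with a minus sign. Its value, counted among the 12 calls, is given as a description. Interactions of other members were -0.87 for the RNA-sensing enzyme Oas1a, -0.73 for Ifit3, -0.83 for Isg15 (a ubiquitin-like modifier) and -0.62 for the transcription factor Irf7, and without M2 and F2 Oas1a had -0.35. Leaving out 1 code gave 6 (without F2) to 13 calls (without F1) in this list. Of 19 NF-kB target and chemokine genes, 4 were called lower and 0 higher, with a median of -0.24, and these were Lcn2 (-1.01), the adhesion receptor Vcam1 (-0.66), Bcl3 (-0.53) and the inhibitor of NF-kB Nfkbie (-0.36). Without M2 and F2, or without M2 alone, 0 of these genes were called lower, and without both the median was -0.03.

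Hormone genes of δ and PP cells had higher interactions. All 10 of the δ and PP markers tested were positive, 8 of them in all 4 codes, 6 were called higher (background 5.20%) and 0 lower, and the median was 0.50. Sst (ENSMUSG00000004366, chr16:23889573-23890958), the somatostatin gene of δ cells, was at 2197, 2069.7, 2513 and 1238 RPKM with Ad-LacZ + DMSO, 2602, 2370.2, 2961 and 1230.3 with Ad-LacZ + JNK Inh, 2464, 1980.0, 2406 and 1089 with Ad-Cre + DMSO and 3735, 2732, 6659.6 and 2382 with Ad-Cre + JNK Inh. With Ad-Cre it was higher in every inhibitor library than in the DMSO library of its code, most in M2, and with Ad-LacZ it was higher in 3 of 4 codes by smaller amounts. The interaction was 0.89 (SE 0.25, adjusted p = 0.21, limma), with double differences of 0.32, 0.39, 1.47 and 1.39, and 0.32 without M2 and F2. Ppy, the pancreatic polypeptide gene, was at 2008, 1922, 2449.9 and 1288 RPKM with Ad-LacZ + DMSO, 1189.7, 1748, 1979 and 1147 with Ad-LacZ + JNK Inh, 2673, 2059, 2754 and 1728 with Ad-Cre + DMSO and 2776, 2065, 2892 and 2533 with Ad-Cre + JNK Inh, with an interaction of 0.65 (SE 0.21, adjusted p = 0.26, limma), or 0.48 without M2 and F2. For Pyy (peptide YY) these values were 0.67 (SE 0.23) and 0.52. Over the 14 alternative settings Ppy went down to 0.024 and lost its call in 4. Pyy went down to 0.19 and lost its call in 5. Both genes were higher with the inhibitor after Ad-Cre and lower after Ad-LacZ, on the scaled values, in 4 of 4 codes. Rbp4, the retinol-binding protein, had 0.82 (SE 0.24), the δ cell transcription factor Hhex 0.57 and the endocrine progenitor factor Neurog3 0.44. Rbp4 had 0.26 without M2 and F2, where the median of the list was 0.32 and 1 was called higher.

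Of 15 α cell markers, 5 were called higher (background 5.20%) and 0 lower, with a median interaction of 0.37. Ttr (transthyretin) was at 617, 468, 388 and 464 RPKM with Ad-LacZ + DMSO, 1120.0, 879, 526 and 619 with Ad-LacZ + JNK Inh, 791, 431, 204 and 288 with Ad-Cre + DMSO and 1802, 1155, 696 and 933 with Ad-Cre + JNK Inh. Its inhibitor libraries were higher in every code with both viruses, by 1.68 with Ad-Cre and by 0.67 with Ad-LacZ (interaction 1.01, SE 0.24, adjusted p = 0.16, limma), and 0.43 without M2 and F2. The transcription factors Irx1 and Irx2 had interactions of 0.45 and 0.47, and the vitamin D-binding protein gene Gc one of 0.64. Gcg, the glucagon gene, was at 18702, 13268, 12334 and 12358 RPKM with Ad-LacZ + DMSO, 20808, 11988, 12599.7 and 10345 with Ad-LacZ + JNK Inh, 20716, 12348, 13130.2 and 11497 with Ad-Cre + DMSO and 21447, 12091, 26503 and 16511 with Ad-Cre + JNK Inh. The Ad-Cre + JNK Inh libraries of M2 and F2 were above the other 3 of their codes, whereas in F1 and M1 all 4 groups were close, and the interaction was 0.59 (SE 0.28, adjusted p = 0.45, limma), or 0.014 without M2 and F2. Once M2 and F2 were left out, 1 α cell marker was called higher, Irx2 had 0.12 and the median was 0.12; 3 were called without M2 alone and 1 without F2 alone.

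β cell transcription factors had no called interaction (0 of 24 in limma, with a median of -0.01). Pdx1 had -0.04 (SE 0.24, adjusted p = 0.99, limma) and Mafa -0.045 (SE 0.44, adjusted p = 0.99, limma). The list's median was -0.20 (F1), -0.14 (M1), 0.27 (M2) and 0.11 (F2), and 0 of the 24 genes had 1 sign in all codes. Of 47 β cell secretory and glucose-response genes, 6 were called higher (background 5.20%) and 2 lower (background 6.00%), with a median of 0.10. Ins2 was at 42737, 40027, 24209 and 34809 RPKM with Ad-LacZ + DMSO, 24501, 29787, 17388 and 22915 with Ad-LacZ + JNK Inh, 49417, 38806, 17943 and 25975 with Ad-Cre + DMSO and 38561, 34294, 22731 and 31536 with Ad-Cre + JNK Inh. With Ad-LacZ the inhibitor libraries were lower in 4 of 4 codes, and with Ad-Cre they were higher in M2 and F2 and lower in F1 and M1. The interaction was 0.74 (SE 0.21, adjusted p = 0.21, limma), but -0.12 with quantile normalization and 0.35 without M2 and F2. Ins1, a near-identical copy with which reads can be exchanged, had 0.25 (SE 0.22), and -0.17 with quantile normalization. The other 5 called higher were Scg5 (0.63), Cpe (0.45) and Pcsk2 (0.40), which act in prohormone processing, and the granule proteins Chga (0.42) and Vgf (0.69). G6pc2, the islet glucose-6-phosphatase, was at 978, 871, 679 and 632 RPKM with Ad-LacZ + DMSO, 1154, 1168, 834 and 861 with Ad-LacZ + JNK Inh, 278, 256, 133 and 169.8 with Ad-Cre + DMSO and 254, 236, 113 and 152 with Ad-Cre + JNK Inh, and its interaction of -0.37 (SE 0.16, adjusted p = 0.39, limma) came from an effect of 0.37 with Ad-LacZ and 0.0056 with Ad-Cre. Adcyap1r1, the receptor of the neuropeptide PACAP, had -1.35 (SE 0.47), with double differences of 0.0024, -0.34, -3.39 and -1.69. In the fit without M2 and F2, Scg5 had 0.20 and Cpe 0.19, 1 gene of the list was called higher and its median was -0.12; leaving out F2 alone gave 2 calls.
Endothelial markers had 1 of 13 called higher, Esm1 (0.59, SE 0.22, or 0.34 without M2 and F2), and 0 lower, with a median of 0.20. Pecam1 was at 0.25 (SE 0.24, adjusted p = 0.79, limma).

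The ATF6 targets and ER lumen folding genes, which encode the chaperones and enzymes of the ER, had mostly positive interactions. Of 27 tested, 23 were positive, against 6116 of 12274 over all genes tested. Of the 27, 3 were called higher (background 5.20%) and 0 lower, and the median was 0.24. The median was positive in each code, with 0.20, 0.39, 0.26 and 0.34. Leaving out M1 gave 1 call, leaving out F2 2, M2 3 and F1 5. With F1 and M1 alone, 7 were called higher and the median was 0.23, but quantile normalization brought it to 0.032 and RPKM as deposited to 0.10. With Ad-Cre 13 of the 27 were called higher with the inhibitor (background 10.0%) and 0 lower, and with Ad-LacZ 2 (background 5.67%) and 0. P4hb, a protein disulfide isomerase, was at 380.5, 417, 333 and 358 RPKM with Ad-LacZ + DMSO, 504, 478, 317 and 343 with Ad-LacZ + JNK Inh, 987, 813, 697 and 903 with Ad-Cre + DMSO and 1549.7, 1349, 1003 and 1320.5 with Ad-Cre + JNK Inh. The Ad-Cre + JNK Inh libraries were the highest of each code, and the interaction was 0.64 (SE 0.17, adjusted p = 0.19, limma), or 0.40 without M2 and F2. Calr (calreticulin) was at 273, 306, 231 and 303 RPKM with Ad-LacZ + DMSO, 471, 393, 243 and 258 with Ad-LacZ + JNK Inh, 837, 716, 764 and 962 with Ad-Cre + DMSO and 1412, 1269.6, 1251 and 1377 with Ad-Cre + JNK Inh, with an interaction of 0.60 (SE 0.26, adjusted p = 0.40, limma) and double differences of -0.065, 0.59, 0.88 and 1.0, so that F1 went the other way, and with 0.23 without M2 and F2. Herpud1, which takes part in ER-associated degradation, was at 114, 121, 101 and 107 RPKM with Ad-LacZ + DMSO, 102, 109, 81.3 and 85.4 with Ad-LacZ + JNK Inh, 558, 473, 569 and 845 with Ad-Cre + DMSO and 638, 594, 561 and 861 with Ad-Cre + JNK Inh. Its interaction was 0.51 (SE 0.22, adjusted p = 0.39, limma), with double differences of 0.32, 0.61, 0.53 and 0.60. Hsp90b1, which encodes GRP94, had 0.41 (SE 0.36, adjusted p = 0.76, limma).
Among 38 XBP1s target, degradation and translocation genes, 6 were called higher (background 5.20%) and 0 lower, with a median of 0.11. Over the alternative settings this median ran from -0.031 to 0.20, so its sign was not stable. They were Ssr4 (0.64), Os9 (0.42), Srpr (0.38), Sec61b (0.37), Ddost (0.36) and Sec23b (0.34), which act in translocation, glycosylation, degradation and export of ER proteins, and 2 of the list were called higher on F1 and M1 alone, without M1 and without F2. On F1 and M1 alone, Ssr4 had 0.39, Os9 0.25, Srpr 0.22 and Sec23b 0.22. Xbp1 itself had 0.015 (adjusted p = 0.99, limma). ATF4 and CHOP targets were split, with 3 called higher and 3 lower of 43 and a median of -0.04. Ppp1r15a (GADD34, which restores translation) was at 18.0, 18.9, 21.0 and 19.0 RPKM with Ad-LacZ + DMSO, 15.7, 17.7, 19.0 and 17.2 with Ad-LacZ + JNK Inh, 44.4, 35.6, 59.9 and 67.3 with Ad-Cre + DMSO and 56.9, 44.7, 69.4 and 79.8 with Ad-Cre + JNK Inh. With Ad-Cre it was higher in each inhibitor library than in the DMSO library of its code, and with Ad-LacZ it was lower, for an interaction of 0.56 (SE 0.20, adjusted p = 0.29, limma). Psat1 (serine synthesis, 0.45) and Nars (0.34) were also called higher, and Cth (cystathionase, -0.69), Slc6a9 (a glycine transporter, -0.47) and Cebpb (-0.53) lower. Psat1 had 0.30 and Slc6a9 -0.31 without M2 and F2. Ddit3, which encodes CHOP, had 0.20 (adjusted p = 0.89, limma).

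Genes of the JNK pathway itself had few calls, against a background of 5.20% higher and 6.00% lower. Of 31 kinases and scaffolds, Mapk8ip3 (the scaffold JIP3) was called higher with 0.63 (SE 0.26, adjusted p = 0.37, limma) and Map3k1 (the upstream kinase MEKK1) lower with -0.32 (SE 0.12, adjusted p = 0.33, limma), around a median of -0.06. Mapk8ip3 was at 3.18, 3.49, 7.38 and 6.67 RPKM with Ad-LacZ + DMSO, 3.12, 3.55, 6.84 and 7.16 with Ad-LacZ + JNK Inh, 6.36, 5.10, 7.15 and 7.75 with Ad-Cre + DMSO and 11.4, 9.07, 8.16 and 10.2 with Ad-Cre + JNK Inh. Its Ad-Cre + JNK Inh library was the highest of the 4 in each code, and the value without M2 and F2 was 0.76. Of 15 MAP kinase phosphatases, Dusp10, which acts on JNK and p38, was called lower with -0.35 (SE 0.13, adjusted p = 0.32, limma). Of 29 AP-1 and immediate-early genes, Nr4a1 (0.77) and Mafk (0.33) were called higher and Klf2 (-0.71) and Egr2 (-0.68) lower. The median was -0.19 with 5 of the 29 positive, and by code it was 0.28 (F1), -0.08 (M1), -0.49 (M2) and -0.48 (F2). The median was 0.083 without M2 and F2, and Klf2 had -0.24.
Of Jun and the genes that the study names for the inhibitor (Atf3, Trib3, Phlda3, Sdc1, Ier5, Bak1 and Cdkn1a), 8 in all, 0 had a called interaction in limma. Of 44 genes of p53 and its targets, 1 was called lower (Lif, -0.72, a cytokine) and 0 higher, with a median of -0.02, and Trp53 had 0.017 (adjusted p = 0.99, limma). Cdkn1a, which encodes the cell cycle inhibitor p21, was at 50.7, 49.5, 98.1 and 60.1 RPKM with Ad-LacZ + DMSO, 45.3, 66.3, 115 and 79.2 with Ad-LacZ + JNK Inh, 212, 171, 246 and 236 with Ad-Cre + DMSO and 241, 246, 224 and 278 with Ad-Cre + JNK Inh. Its inhibitor libraries were higher in 3 of 4 codes with either virus, or in 4 of 4 with Ad-Cre on the scaled values, and its interaction was 0.13 (SE 0.25, adjusted p = 0.94, limma). Sdc1, a heparan sulfate proteoglycan that is also a plasma cell marker, was at 0.846, 1.02, 2.08 and 0.737 RPKM with Ad-LacZ + DMSO, 0.384, 1.69, 6.31 and 6.60 with Ad-LacZ + JNK Inh, 2.54, 2.74, 8.66 and 5.64 with Ad-Cre + DMSO and 3.58, 3.32, 2.34 and 3.54 with Ad-Cre + JNK Inh. F1 had a positive double difference and M2 and F2 negative ones (0.84, -0.11, -2.56 and -2.45), for an interaction of -1.07 (SE 0.52, adjusted p = 0.46, limma) that was 0.34 without M2 and F2. The double differences were 1.04, -0.29, -1.65 and -0.83 for Phlda3, an AKT inhibitor, 0.61, 0.16, -0.93 and -0.49 for Trib3, a pseudokinase of the ATF4 branch, and 0.82, 0.0099, -0.82 and -0.54 for Ier5. In these 3 genes F1 was positive and M2 and F2 negative, and their interactions were -0.43, -0.16 and -0.13 (adjusted p from 0.79 to 0.97, limma). Atf3, a stress-induced transcription factor, had -0.15 (adjusted p = 0.91, limma) and Bak1, a pore-forming protein of apoptosis, -0.32 (adjusted p = 0.47, limma).
Of 34 BCL2 family and caspase genes, 2 were called lower and 0 higher, with a median of -0.15. The median was 0.023 without M2 and F2 and 0 were called lower, whereas leaving out F1 alone gave 11. Casp1, the inflammatory caspase, was at 0.239, 0.425, 1.77 and 0.861 RPKM with Ad-LacZ + DMSO, 0.504, 0.530, 3.07 and 1.86 with Ad-LacZ + JNK Inh, 0.140, 0.196, 2.80 and 2.19 with Ad-Cre + DMSO and 0, 0.0965, 1.51 and 0.692 with Ad-Cre + JNK Inh, with an interaction of -0.77 (SE 0.19, adjusted p = 0.18, limma). Its level was below 1 RPKM in all 8 libraries of F1 and M1, which left it untested there. Casp8 had -0.48 (SE 0.16, adjusted p = 0.28, limma). Some genes were also measured by qPCR in the study, in islet cells or, as Map1lc3b and Lgals3, in liver. Of the 31 tested here, 5 were called higher and 1 lower with a median of 0.12, and leaving out M1 or M2 gave 2 higher; besides Calr and Herpud1 these were Map1lc3b (0.64), Asna1 (0.60), Pcna (0.34) and, lower, Lgals3 (-1.0). They were chosen on results of the same work, so that their count is not independent evidence.

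Genes of protein synthesis, respiration and protein turnover had small interactions that were mostly positive. Over all genes tested, 6116 of 12274 interactions were positive. The background for the interaction calls in these lists and the next is 5.20% higher and 6.00% lower. Of 52 cytosolic ribosomal protein genes, 50 were positive, 11 were called higher and 0 lower, and the median was 0.31, with 0.09 (F1), 0.48 (M1), 0.09 (M2) and 0.48 (F2). Leaving out M1 gave 1 call and leaving out F2 gave 0, against 24 without F1, 16 without M2 and 10 on F1 and M1 alone. With Ad-Cre 33 of the 52 were called higher (background 10.0%) and 0 lower, and with Ad-LacZ 2 (background 5.67%) and 0. Rps25 was at 20.3, 18.4, 18.9 and 18.5 RPKM with Ad-LacZ + DMSO, 21.3, 19.5, 17.9 and 20.9 with Ad-LacZ + JNK Inh, 38.5, 24.6, 31.7 and 29.5 with Ad-Cre + DMSO and 46.6, 37.6, 29.0 and 47.0 with Ad-Cre + JNK Inh. The Ad-Cre + JNK Inh library was above the Ad-Cre + DMSO library in F1, M1 and F2 and below it in M2 (above it there on the scaled values), and the interaction was 0.43 (SE 0.16, adjusted p = 0.31, limma). Reads of ribosomal protein genes can be shared with their many pseudogenes, which makes these values uncertain.
Of 48 nuclear genes of oxidative phosphorylation, 45 were positive, 13 were called higher and 0 lower, with a median of 0.25, and 8 were called on F1 and M1 alone with a median of 0.22. Leaving out M1 gave 5 calls and leaving out F2 gave 2, against 19 without F1 and 12 without M2. Atp5a1, the α subunit of ATP synthase, was at 212, 213, 171 and 164 RPKM with Ad-LacZ + DMSO, 175, 199, 171 and 181 with Ad-LacZ + JNK Inh, 326, 288, 219.7 and 239.5 with Ad-Cre + DMSO and 360.3, 332, 235 and 299 with Ad-Cre + JNK Inh. Its double differences, 0.38, 0.42, 0.33 and 0.42, were alike in all codes, and its interaction was 0.39 (SE 0.12, adjusted p = 0.26, limma). Of 31 proteasome subunits, 26 were positive, 8 were called higher and 0 lower with a median of 0.14, among them Psmc4 (0.40), Psmd7 (0.46, or 0.16 without M2 and F2) and Psmb3 (0.48). Leaving out M1 or F2 gave 0 calls, F1 and M1 alone gave 6, and the median ran down to 0.0032 across the settings. Of 39 lysosome and autophagy genes, 28 were positive and 11 negative, 3 were called higher (background 5.20%) and 0 lower, with a median of 0.09 that was -0.054 in M2. Map1lc3b, which marks autophagosomes, was at 14.5, 14.1, 15.1 and 13.0 RPKM with Ad-LacZ + DMSO, 13.4, 14.1, 15.2 and 14.6 with Ad-LacZ + JNK Inh, 31.5, 24.1, 27.7 and 26.5 with Ad-Cre + DMSO and 39.6, 35.6, 39.0 and 44.7 with Ad-Cre + JNK Inh. All 4 Ad-Cre + JNK Inh libraries were above the other 12, and the interaction was 0.64 (SE 0.12, adjusted p = 0.098, limma).
DNA replication and mitosis genes had 5 of 33 called higher and 0 lower, with a median of 0.12, and here F1 and M1 carried the values. The median was 0.35 (F1), 0.44 (M1), -0.17 (M2) and 0.05 (F2), and on F1 and M1 alone it was 0.30 with 11 called higher. Mcm2, a subunit of the replicative helicase, was at 2.47, 2.94, 2.99 and 2.24 RPKM with Ad-LacZ + DMSO, 2.05, 3.28, 2.45 and 2.90 with Ad-LacZ + JNK Inh, 4.09, 3.92, 4.39 and 4.38 with Ad-Cre + DMSO and 7.84, 8.74, 4.57 and 5.53 with Ad-Cre + JNK Inh. Its interaction was 0.66 (SE 0.20, adjusted p = 0.24, limma), or 0.95 without M2 and F2. Pcna (0.34), Mcm7 (0.38) and the cyclins Ccne1 (0.48) and Ccnd1 (0.37) were the others called. Of 32 MYC and ribosome biogenesis genes, 3 were called higher (Nop56 0.55, Nolc1 0.50 and Odc1 0.40) and 1 lower (Ldha, -0.56), with a median of 0.13, and Nolc1 had 0.16 without M2 and F2.

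**Figure D5:**
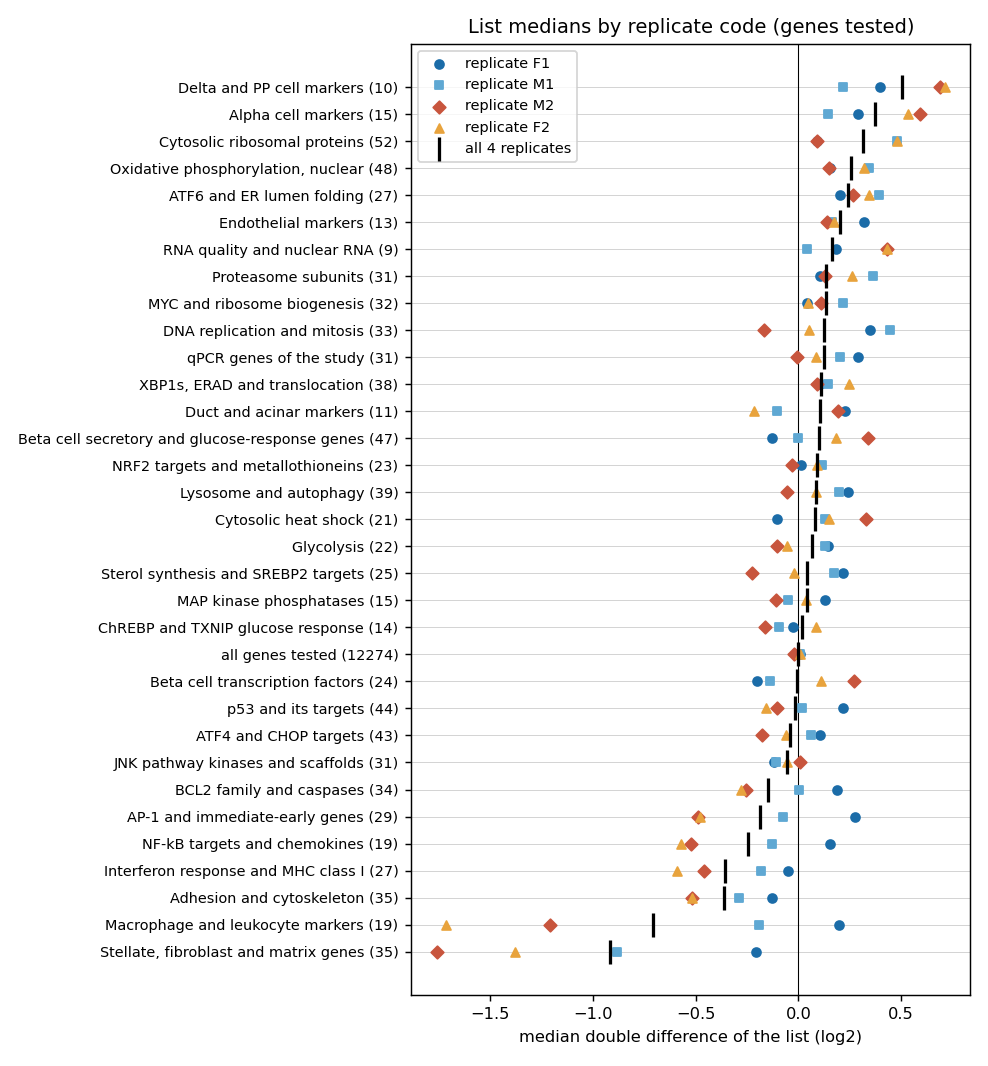
Points give the median double difference (log2) of each gene list in each replicate code, next to that of all genes tested. The matrix genes lie below 0 in all 4 codes (from -1.76 to -0.21) and the δ and PP markers above it (from 0.22 to 0.71), while the macrophage markers run from -1.72 in F2 to 0.20 in F1.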

How the data were processed

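Poly(A) RNA of 16 cultures of dispersed islet cells was sequenced in paired-end mode by the authors, who obtained raw counts by alignment to the mouse genome, for which their methods cite STAR. The authors deposited RPKM values for 25105 genes, and the submitters' processing notes name GRCm38; the aligner's version, the annotation and the step to RPKM are not given in the sources used here. The file also holds 3 columns that match no sample label, and these were left out.

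Samples were grouped by their labels. Depth was estimated at 7.69 to 25.5 M (mega) reads from the most frequent value of RPKM multiplied by GENCODE M21 exon length, taken as 1 read. This estimate puts some libraries below the range of raw counts that the paper states for each sample. Depth limits low genes. RPKM are not counts. They were therefore scaled with TMM factors taken from the RPKM values (30% of ratios and 5% of levels trimmed), and log2(RPKM + 1) of the 12274 genes above 1 RPKM in at least 4 libraries was fitted in limma 3.58.1 (lmFit, contrasts, eBayes with trend; R 4.3.3), with 4 groups and the replicate code as a block (9 residual degrees of freedom). The pseudocount of 1 makes fold changes of low genes too small. Tables and figures were made with Python 3.11.15, pandas 2.3.3, numpy 2.4.6 and matplotlib 3.10.9. The codes pair the libraries, since the methods describe parallel cultures of 1 biological replicate. As a check, residuals of libraries of the same code correlated by 0.095 to 0.796 (mean 0.507, 24 pairs), against a mean of -0.166 for other pairs (72). Each group holds 1 culture per preparation. With the code as a block, p-values measure the spread left after group and code effects, not the spread between the 4 preparations. This spread is pooled over all groups and drawn by eBayes towards that of other genes. An SE can therefore be larger or smaller than the spread of a gene's 4 double differences implies. The procedure was also run on simulated data with independent noise in each library. Such data lack the correlation of M2 and F2 seen here, so they cannot show how the calls behave under it.

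The members and the 33 gene lists were chosen with earlier results of these data known. Lists are described by counts and medians, without a test. Genes were named by a rule: Hspa5; in each direction the 10 with the smallest p among those with 1 sign in all codes, since none passed the adjusted p; up to 4 members of each list by p; and Jun with 7 genes that the study names for the inhibitor. Other named genes were chosen after their values were seen, and a few that the rule took are not reported here. Alternative settings used a pseudocount of 0.1, other filters, RPKM as deposited, quantile normalization, no block, a fit on the double differences, eBayes without trend, each code left out, the Ad-Cre + JNK Inh library of F2 left out, and, added later, M2 and F2 left out.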

Additional observations from a re-analysis of the deposited data

Results flagged for a closer look

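In 2 of the 162 sets of 4 double differences examined (129 genes and 33 lists), 1 replicate code lay far from the others, and chance alone marks about 1 in 20 such sets. Hk2, the inducible hexokinase, had a double difference of 0.11 in F1 and of -0.998 to -0.94 in the other codes. Hsp90aa1, the stress-induced cytosolic HSP90, had 0.051 in F1 and 0.57 to 0.67 in the others.

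For 26 of the genes examined, the inhibitor moved every code one way with Ad-Cre and every code the other way with Ad-LacZ; among all genes tested, 126 were higher with Ad-Cre and lower with Ad-LacZ in 4 of 4 codes and 182 the reverse. The difference was tested by the interaction in limma, and none of the 26 passed the adjusted p. For Gbp2, which passed the filter on low values mainly through libraries with a minus sign, the opposition is a description only. Higher interactions of this kind were those of Zfp784 (0.77), Ambp (1.16), Rnf227 (0.93) and Rnf7 (0.56), of the hormone genes Ppy (0.65) and Pyy (0.67), of the ER and secretory genes Herpud1 (0.51), Sec23b (0.34), Ppp1r15a (0.56) and Cpe (0.45), of the endothelial gene Esm1 (0.59) and of the long noncoding RNA Meg3 (0.67). Lower interactions were those of the matrix and contractile genes Postn (-2.17), Fn1 (-2.04), Actg2 (-1.83), Cnn1 (-1.35), Itga5 (-1.13) and Myl9 (-0.95), of the immune genes Ctsk (-2.56), Cd74 (-2.02), Gbp2 (-1.17), Casp1 (-0.77), Ddx58 (-0.52) and Nfkbie (-0.36), and of Tpbg (-0.83) and Tenm3 (-0.52).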

How the results depend on the processing

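The count of 1374 called interactions was 1382 with a pseudocount of 0.1, 1649 with no filter, 1733 with a filter at 0.1 RPKM, 1608 with RPKM as deposited, 1238 with quantile normalization, 1480 on the double differences and 1387 without trend. Leaving out 1 replicate code gave 542 (without F2) to 2051 (without F1), with 858 without M1 and 1044 without M2, and leaving out the Ad-Cre + JNK Inh library of F2 gave 1176. With no replicate block, the fit called 429 interactions, 1294 inhibitor effects with Ad-Cre and 463 with Ad-LacZ, and 2 interactions passed the adjusted p, against 1 with quantile normalization and 0 in every other setting; 423 of the 429 were among the 1374. Without M2 and F2, 1052 interactions and, with Ad-LacZ, 1552 effects were called. The median of the ATF6 list was 0.10 as deposited and 0.032 with quantile normalization. Signs reversed as deposited for Jun (-0.022), Cdkn1a (-0.016) and Xist (-0.034), and with quantile normalization for Cdkn1a (-0.13), Ins1 (-0.17) and Ins2 (-0.12). Without 1 code or the F2 library the values ran from -0.15 to 0.077 for Pdx1, -0.15 to 0.12 for Mafa, -0.46 to 0.087 for Trib3, -0.44 to 0.088 for Ier5, -0.26 to 0.0042 for Atf3 and -0.13 to 0.17 for Xist. Without M2 and F2 signs reversed for Atf3 (0.017), Trib3 (0.35), Phlda3 (0.34), Sdc1 (0.34), Ier5 (0.38), C1qa (0.21), mt-Rnr1 (-0.21), mt-Rnr2 (-0.17) and Xist (-0.21). The cause was not tested. Genes below about 1 RPKM could not be fitted once libraries were left out, and depth limits them.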

Other observations

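Lipid and glucose metabolism genes were split in direction. Of 25 genes of sterol synthesis and SREBP2 targets, 2 were called higher and 4 lower, with a median of 0.04. Hmgcs1 (-0.31), Hsd17b7 (-0.56) and the desaturase Scd1 (-0.53) were among those called lower, while lanosterol synthase Lss (0.45) and the sterol sensor Insig1 (0.40) were called higher; without M2 and F2, Hsd17b7 had -0.19 and 0 were called lower. Of 22 glycolysis genes, Pgam1 (0.46) and Gpi1 (0.41) were called higher and Hk2 (-0.70), Pfkp (-0.40) and Ldha (-0.56) lower. Pgam1 was at 132, 128, 139 and 129 RPKM with Ad-LacZ + DMSO, 120.1, 133, 151 and 146 with Ad-LacZ + JNK Inh, 205, 176, 218 and 205 with Ad-Cre + DMSO and 250.5, 239.9, 260.3 and 292 with Ad-Cre + JNK Inh, and its Ad-Cre + JNK Inh libraries were above the other 12. Of 14 ChREBP and TXNIP glucose-response genes, 1 was called lower (G6pc2), with a median of 0.02.

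Stress proteins of the cytosol were split as well. Of 21 heat shock genes, Hsp90aa1 (0.49) and Hsp90ab1 (0.44) were called higher and the small heat shock protein Cryab (-0.73) lower, with a median of 0.08. These 3 had 0.28, 0.23 and -0.44 without M2 and F2. Of 23 NRF2 targets and metallothioneins, Sod1 (0.60) and Prdx1 (0.35) were called higher and catalase Cat (-0.56) and Mt1 (-0.58) lower, with a median of 0.09, and Sod1 had 0.12 without M2 and F2. Mt1 was at 50.5, 46.2, 35.9 and 37.3 RPKM with Ad-LacZ + DMSO, 61.9, 63.7, 72.0 and 55.2 with Ad-LacZ + JNK Inh, 59.1, 55.6, 50.5 and 45.0 with Ad-Cre + DMSO and 40.6, 40.2, 69.9 and 42.7 with Ad-Cre + JNK Inh. With Ad-LacZ all 4 inhibitor libraries were higher than their DMSO libraries, and with Ad-Cre those of F1, M1 and F2 were lower, although on the scaled values that of F2 was higher. Of 11 duct and acinar markers tested, 2 were called higher, among them Epcam (0.48), and Spp1 (osteopontin, -0.98) was called lower, with a median of 0.11. Krt19, a duct keratin, had 33 RPKM in the Ad-LacZ + JNK Inh library of F2 and 0.349 to 2.19 RPKM in the other 15.

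Of 9 RNA quality and nuclear RNAs, Meg3 was called higher (0.67) and 0 lower, with a median of 0.16. Meg3 was at 2.94, 2.24, 27.0 and 30.1 RPKM with Ad-LacZ + DMSO, 2.19, 2.03, 23.5 and 23.4 with Ad-LacZ + JNK Inh, 2.36, 1.98, 24.2 and 23.0 with Ad-Cre + DMSO and 2.84, 2.68, 36.4 and 24.9 with Ad-Cre + JNK Inh, so that M2 and F2 stood above F1 and M1 in every group. Of the mitochondrial genes in the lists only the ribosomal RNAs mt-Rnr1 and mt-Rnr2 were in the file, with double differences of -0.61, 0.26, 1.93 and 1.93 and of -0.48, 0.21, 1.97 and 2.01.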
